A study of Bos taurus with 4 samples.

Results

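Shortened miRNA tags were tags of 18 to 20 nt in the lists of distinct sequences that the authors deposited for each small RNA library. A tag is a distinct read sequence with its read count and the name of the miRNA precursor it was assigned to. Both lists together held 1483 such tags of 3707, with 1000 of 2792 tags in the HH library and 1232 of 2948 in the LL library. Their reads were expressed as a share of the reads of their precursor, and their ends were compared with the most abundant 22 nt tag of the same precursor.

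The study sequenced mammary epithelial cells in primary culture from Chinese Holstein cows. Its design names cows whose milk held 4.85% fat and cows whose milk held 3.41%, and it has 1 small RNA library titled HH and 1 titled LL. The codes are not spelled out, and both small RNA libraries carry the phenotype label low milk fat. Each comparison is therefore given as HH against LL and not as high against low milk fat. The number of animals behind each library is not given in the labels, and the epithelial identity of the cells was not checked here, since the tag lists hold miRNA reads only.

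A mature miRNA is cut from a hairpin precursor by Drosha and Dicer and is held by an Argonaute protein. Its 5′ end fixes the seed, bases 2 to 8, which pairs with target mRNAs, while its 3′ end can be shortened by exonucleases or extended by nucleotidyl transferases. Variants of a miRNA that differ in their ends are called isomiRs. A tag shortened at the 3′ end keeps its seed, and a tag shortened at the 5′ end has another one.

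The sequences below are the leading 22 nt tags, by reads summed over both libraries, of the precursors with the most short reads or among the highest short shares. They are printed as DNA, 5′ to 3′, and the capitals mark the bases missing from the most abundant short tag of that precursor.
bta-let-7b: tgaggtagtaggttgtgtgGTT
bta-let-7i: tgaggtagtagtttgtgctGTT
bta-mir-222: agctacatctggctactgGGTC
bta-let-7a-3: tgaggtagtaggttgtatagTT
bta-mir-21: tagcttatcagactgatgttGA
bta-mir-27b: ttcacagtggctaagttcTGCA
bta-mir-125a: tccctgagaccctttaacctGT
bta-mir-92a: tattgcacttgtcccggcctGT
bta-mir-29b-1: tagcaccatttgaaatcagtGT
bta-mir-101-1: gtacagtactgtgataactGAA
In each of the sequences shown the missing bases lie at the 3′ end. Precursor bta-mir-27a, which also had one of the highest short shares, is not shown because its leading short tag does not lie on its leading 22 nt tag. That holds for all of its 1547 short reads in HH and for 1007 of 1011 in LL. The 3 let-7 precursors share the seed GAGGTAG, and the other 7 have seeds of their own.

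Short tags took a smaller part of the miRNA reads in HH than in LL. They held 485374 of 7087726 reads in HH, or 6.85% (95% exact Clopper-Pearson interval 6.83 to 6.87%), against 1721223 of 9059038 reads in LL, or 19.0001% (18.97 to 19.03%). The share in HH was 0.360 of that in LL. The gap was widest at 19 nt, with 3.77% of reads in HH against 12.01% in LL. At 18 nt the shares were 0.960% and 2.86%, and at 20 nt they were 2.12% and 4.13%. Just outside the limit, tags of 21 nt held 5.42% of reads in HH and 5.62% in LL, which is close. Tags of 22 nt, the commonest length in both, held 70.5% in HH and 57.0% in LL. There are no replicates, so every comparison is between these libraries alone. Intervals cover counting error only, since reads were not tied to single molecules.

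A few precursors carried most of the short reads. The let-7 precursors, whose miRNAs restrain cell growth and promote differentiation in many animals, gave 76.3% of the short reads in HH and 73.0% in LL, and bta-let-7b alone gave 42.6% and 54.7%. Without bta-let-7b the short share was 5.13% in HH against 10.6% in LL. Without any let-7 precursor it was 6.80% against 12.4%, so the direction was the same with and without this family. When the LL shares were weighted by the HH mix of precursors, the short share was 6.85% in HH against 21.2% in LL. The difference was thus no smaller with the mix of precursors held equal.

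Of 1000 short tags in HH 327 had 1 read, as did 357 of 1232 in LL. The lists shared 749 short tags, 251 were listed in HH alone and 483 in LL alone. Tags of 21 nt or longer were also listed in 1 library alone, but with the other balance. They numbered 1792 in HH and 1716 in LL, so those in HH alone outnumbered those in LL alone, the reverse of the short tags. Over all lengths, lists of 2792 tags in HH and 2948 in LL made 3707 distinct tags together. None of the short tags in HH alone had more than 50 reads, and none of those in LL alone more than 112. At the HH read total the LL library would be expected to list 1024 distinct short tags, close to the number in HH, so the libraries differed in the reads of short tags more than in how many there were.

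Per precursor, the short share was lower in HH for most miRNAs. Among the 116 precursors with at least 100 reads in both libraries it was lower in HH in 100 and higher in 15, and 1 had no short read. The median share was 6.39% in HH (quartiles 1.64 and 15.9%) and 15.7% in LL (quartiles 3.49 and 50.7%). A precursor was called when its shares differed by more than 2-fold and their exact intervals did not overlap. By this rule 56 precursors were lower in HH, 48.3% of those compared, and 1 was higher, 0.862%. For the share of 21 nt tags the same rule called 15.5% lower and 10.3% higher. At 21 nt precursors were thus called in both directions, whereas nearly all calls for short tags were lower in HH.

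The order of the precursors was alike in both libraries. Short shares in HH and LL had a Spearman rho of 0.911 across the 116 precursors, which share library, depth and sequence between the points and include members of the same families. Short tags made up more than 50% of the reads of 10 precursors in HH and of 30 in LL, and under 1% of the reads of 20 in HH and 15 in LL. Among precursors with at least 100 reads, the single most abundant tag was a short one in 14 of 124 in HH and in 32 of 125 in LL.

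The let-7b precursor gave the most short reads. It had 206869 short reads of 1655816 in HH, or 12.5% (12.44 to 12.54%), against 941167 of 1726739 in LL, or 54.5% (54.4 to 54.6%), which is 4.36-fold lower in HH. Its 19 nt tag alone had 138057 reads in HH and 763161 in LL, which is −2.17 as a log2 ratio of HH over LL after TMM scaling (exact interval −2.18 to −2.16). Its 22 nt tag went the other way, at 984199 reads in HH against 370638 in LL (log2 ratio 1.71). All reads of the precursor together stood at 0.24. The direction for let-7b therefore depended on which tag length was read.

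The same opposition held for other abundant miRNAs. Precursor bta-let-7i had 141945 short reads of 294233 in HH, or 48.2%, against 212419 of 236437 in LL, or 89.8%. Its short reads had a log2 ratio of −0.28 and its longer reads one of 2.96. Precursor bta-mir-21, whose miRNA is raised in many tumours and wounds, had short shares of 28.5% in HH and 73.5% in LL, with log2 ratios of −0.42 for short and 2.38 for longer reads. In bta-mir-125a, a relative of the worm lin-4 miRNA, the shares were 28.1% and 90.3%, with log2 ratios of −2.05 and 2.54. For these 3 precursors, as for bta-let-7b, summed short reads were lower and summed longer reads higher in HH. Not every short tag followed its sum. The 20 nt tag of bta-let-7i was higher in HH, with 36810 reads against 24065 in LL (log2 ratio 0.91, interval 0.89 to 0.94). Its 19 nt tag had 97003 and 173326 reads (−0.54).

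Of 83 precursors with at least 100 summed short reads and 100 summed longer reads, 34 had short reads lower and longer reads higher in HH, with both intervals past 0. The reverse held for 1. Both kinds were lower in HH in 19 and higher in 14. The median log2 ratio over these 83 was −0.83 for short reads and 0.42 for longer reads. With DESeq2 size factors every log2 ratio moves by −0.18, and with the upper quartile by −0.30. A ratio between 0 and 0.30, such as that of all let-7b reads, is below 0 with the upper quartile.

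In bta-mir-222, whose miRNA targets the cell cycle inhibitor CDKN1B, short and longer reads were both lower in HH. It had 38214 short reads of 506898 in HH, or 7.54%, against 300653 of 1993810 in LL, or 15.1%. The ratio of 2.0002-fold lower in HH was just past the 2-fold limit. Its 18 nt tag had 6969 reads in HH against 119043 in LL (log2 ratio −3.79, interval −3.83 to −3.76), lower than that of its longer reads at −1.55. Its 20 nt tag, at −2.14, was not lower than its 22 nt tag, at −2.28.

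Tag by tag, short tags were also more often lower in HH than other tags. Of 203 short tags with at least 100 summed reads, 105 lay lower in HH and 14 higher, counting a tag when its interval lay wholly beyond 2-fold. Over all 619 tags with that depth 27.1% were lower and 19.7% were higher. The median log2 ratio was −1.48 for short tags and 0.23 for tags of 21 nt or longer. By length it was −1.46 at 18 nt, −1.94 at 19 nt, −0.95 at 20 nt and −0.01 at 21 nt, so the short lengths were lower than the length next to them.

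The 5 short tags furthest below LL, ranked by the bound of the interval nearest 0, came from 4 precursors that also had fewer reads in all in HH. Precursor bta-mir-2344 had a 19 nt tag with 5 reads in HH against 225 in LL (log2 ratio −5.19, interval −6.83 to −3.95). An 18 nt tag of bta-mir-155, a miRNA of activated immune cells, had 33 reads in HH and 782 in LL (−4.27, interval −4.82 to −3.76). The 18 nt tag of bta-mir-124b, a precursor not listed in HH, was found 0 times in HH and 112 times in LL, which is at least 30.3-fold lower in HH with the floor of 3 reads per library. The others of the lowest 5 were 18 nt tags of bta-mir-222.

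The 5 short tags furthest above LL came from 4 precursors. A 20 nt tag of bta-mir-193a had 1061 reads in HH against 175 in LL (log2 ratio 2.8996, interval 2.67 to 3.14). Precursor bta-mir-130a had a 20 nt tag with 230 reads in HH and 29 in LL (3.29, interval 2.73 to 3.90). Precursor bta-mir-143 gave an 18 nt tag with 128 reads in HH and 13 in LL and a 19 nt tag with 531 and 123. The 18 nt tag of bta-let-7f-1 had 402 reads in HH and 94 in LL. The bta-mir-143 tags did not lie on the leading 22 nt tag of their precursor. The bta-mir-193a tag lay on that of the HH library, as a 3′ shortened tag, and not on that of the LL library. These 5 tags stood against the general direction. For bta-mir-130a the short share of the precursor was nevertheless lower in HH, at 55.6%, than in LL, at 80.9%. The same held for bta-mir-143 (38.4% and 51.4%) and bta-let-7f-1 (0.360% and 0.939%). The share of bta-mir-193a, given further below, was higher in HH over all its reads but lower within the arm.

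Several miRNAs were read mostly as short tags in both libraries. Precursor bta-mir-27b, whose miRNA acts on regulators of fat cell formation, had a short share of 89.5% in HH and 88.3% in LL, and bta-mir-27a had 76.5% and 83.0%. The shares of bta-mir-92a, from the cluster that also holds miR-17, were 66.5% and 89.2%. Those of bta-mir-29b-1, whose miRNA targets collagen mRNAs, were 64.2% and 87.6%, and those of bta-mir-101-1 were 34.3% and 76.7%. Short tags were thus the larger part of bta-mir-27b, bta-mir-27a, bta-mir-92a and bta-mir-29b-1 in either library.

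At the other end, bta-let-7g had 88 short reads of 69968 in HH, or 0.126%, and 100 of 47561 in LL, or 0.210%. Precursor bta-mir-107 had 6 of 8233 in HH and 3 of 11861 in LL. Precursor bta-let-7f-2 had 0 of 22470 reads in HH, which allows a share of up to 0.0134% by the floor of 3 reads and 0.0164% by the exact interval, and 3 of 13586 in LL. Precursor bta-let-7a-1 had 0 of 2278 in HH, which allows up to 0.132% and 0.162% in the same way, and 1 of 1965 in LL. The short beginnings of the miRNAs of bta-mir-107, bta-let-7f-2 and bta-let-7a-1 were listed under other precursors of the same family.

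Every distinct tag was listed once, and a short tag can lie within longer tags of several precursors. Such tags, found within a longer tag of another precursor with at least 100 summed reads, held 6.86% of the short reads in HH and 5.62% in LL. The capitals below mark the base that separates each pair of miRNAs, in the most abundant longer tag of each that starts at the same base, and show where a shortened tag can no longer be assigned.
bta-let-7a-3: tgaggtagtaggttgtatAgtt
bta-let-7c: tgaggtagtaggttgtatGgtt
bta-mir-103-2: agcagcattgtacagggctatGa
bta-mir-107: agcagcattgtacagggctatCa
bta-mir-27a: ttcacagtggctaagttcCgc
bta-mir-27b: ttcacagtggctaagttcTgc
The miR-27 pair was chosen after its values were seen. The let-7 and miR-27 pairs are the same up to base 18, and the miR-103 and miR-107 pair up to base 21.

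The 18 nt tag common to let-7a and let-7c, with 1179 reads in HH and 993 in LL, was listed under bta-let-7c. The 18, 19 and 20 nt tags that begin both miR-103 and miR-107 were listed under bta-mir-103-2, which had a short share of 4.12% in HH and 17.0% in LL. Summed over bta-mir-103-2 and bta-mir-107 the share was 3.48% in HH and 13.9% in LL, 3.99-fold lower in HH. The 18 nt tag common to miR-27a and miR-27b, with 13222 reads in HH and 12691 in LL, was listed under bta-mir-27b, and it made up most of the reads of that precursor. Both miR-27 precursors summed had a short share of 88.2% in HH (87.8 to 88.6%) and 87.9% in LL (87.5 to 88.4%), which overlap. The summed miR-27 share therefore does not rest on which precursor the tag was listed under. It does mix the reads of both arms of the hairpin, which are kept apart further below.

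The let-7 family offered a set of closely similar sequences. The leading 22 nt tag of each member is shown with base 19 in capitals, from the highest to the lowest short share in HH, apart from precursors that repeat a miRNA. The base was singled out after the shares were seen.
bta-let-7i: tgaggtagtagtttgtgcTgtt
bta-let-7b: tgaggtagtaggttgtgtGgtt
bta-mir-98: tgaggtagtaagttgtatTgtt
bta-let-7c: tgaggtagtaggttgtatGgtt
bta-let-7e: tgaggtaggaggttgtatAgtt
bta-let-7d: agaggtagtaggttgcatAgtt
bta-let-7a-3: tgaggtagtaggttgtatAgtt
bta-let-7f-1: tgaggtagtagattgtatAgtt
bta-let-7g: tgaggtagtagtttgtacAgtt
All 9 share the seed GAGGTAG. The 4 members without A at base 19 had the higher shares, and the 5 with A the lower ones, in both libraries.

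Among the members without A at base 19, bta-mir-98 had short shares of 12.2% in HH and 50.8% in LL, and bta-let-7c had 3.24% and 16.8%. With bta-let-7i and bta-let-7b, given above, the 4 ran from 3.24 to 48.2% in HH and from 16.8 to 89.8% in LL. Among the members with A, bta-let-7e had 1.23% in HH and 6.09% in LL, bta-let-7d 1.07% and 3.88%, bta-let-7a-3 0.572% and 2.77%, and bta-let-7f-1 0.360% and 0.939%. With bta-let-7g they ran from 0.126 to 1.23% in HH and from 0.210 to 6.09% in LL. The ranges did not overlap in either library, over 9 sequences that differ at other bases too. All 9 had a lower share in HH, by 1.67-fold in bta-let-7g to 5.18-fold in bta-let-7c.

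Outside the let-7 family the same base separated the precursors less. Over 101 other precursors with at least 100 reads in both libraries and a 22 nt tag, those with A at base 19 (17 precursors) had a median short share of 6.50% in HH and 9.44% in LL. Those with C (15) had 7.57% and 43.0%, those with G (35) had 7.54% and 19.6%, and those with T (34) had 6.25% and 16.8%. In HH the 4 medians were close, and in LL that of the A precursors was the lowest. The quartiles overlapped, with 3.18 to 19.2% for A and 3.69 to 53.4% for G in LL.

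Loss at the 3′ end accounted for nearly all short reads. Tags with the same start as the leading 22 nt tag of their precursor in the same library, but an earlier end, held 97.3% of the short reads in HH (97.2 to 97.3%) and 97.5% in LL (97.46 to 97.51%). Of these reads 55.9% had lost 3 bases in HH and 64.3% in LL, 30.0004% and 20.5% had lost 2, and 14.1% and 15.1% had lost 4. Counted as distinct tags, the 3′ shortened ones were 358 of 1000 in HH and 399 of 1232 in LL, so most distinct short tags were of other kinds with few reads. Without let-7 precursors the 3′ shortened reads were 89.3% in HH and 91.1% in LL.

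The name shortened tag fits the reads better than the list of sequences. Tags that did not lie on the 22 nt tag held 0.933% of the short reads in HH and 0.521% in LL but numbered 259 and 292. None of them could be placed with 1 mismatch either. In LL they include 1000 of the 1001 short reads of bta-mir-29b-1, whose leading 22 nt tag there is another sequence. Another 61 tags in HH and 122 in LL belonged to precursors with no 22 nt tag in that library. Tags shifted past 1 end of the 22 nt tag held 0.661% of short reads in HH and 0.876% in LL, and the largest of these were from bta-mir-140. No short tag matched the 22 nt tag from its start in all but a changed last base, and other kinds of added bases were not looked for. A list limited to exact matches would hold no such tag, and the matching rule of the deposited lists is not given. The absence therefore cannot tell whether bases were added.

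Which base came next in the 22 nt tag after a 3′ shortened end depended on whether reads or tags were counted. By reads it was G in 69.6% in HH and 79.5% in LL, and by distinct tags it was G in 38.3% and 39.8%. Over the leading 3′ shortened tag of each precursor with at least 20 such reads, the next base was G in 25 of 68 in HH and in 37 of 84 in LL, or 36.8% and 44.0%. In the same precursors G made up 37.7% of bases 19 to 21 in HH and 38.1% in LL. Counted by precursor, G was thus near its share of those positions in HH and somewhat above it in LL. No interval was computed for these counts of 68 and 84 tags, so a difference between the libraries is not read from them. Without let-7 precursors G came next in 52.8% of the reads in HH and 63.5% in LL.

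Short reads were richer in G and C than 22 nt reads in both libraries, at 45.7% against 39.5% in HH and 47.2% against 41.9% in LL. Counted once per tag the medians were 47.4% and 50% for short tags in HH and LL, and 50% for 22 nt tags in either library. Tags that start with T made up 87.2% of short reads in HH and 78.4% in LL, against 91.7% and 73.8% of 22 nt reads. The order of short and 22 nt reads by their share of T starts therefore differed between the libraries. The abundant let-7 tags start with T and those of bta-mir-222 with A.

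Loss at the 5′ end was rare in both libraries. Tags with a later start and the same end as the 22 nt tag held 1206 short reads in HH, or 0.248%, and 2210 in LL, or 0.128%. Loss at both ends held 0.752% in HH and 0.915% in LL. The precursors with the most 5′ shortened reads were bta-mir-320-1, bta-let-7a-3, bta-mir-2284x, bta-mir-29a and bta-mir-103-2. In the pairs below the 22 nt tag comes before its 5′ shortened tag, and the capitals mark bases 2 to 8 counted from the start of each, where the seed would lie.
bta-let-7a-3, 22 nt: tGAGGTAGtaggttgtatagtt
bta-let-7a-3, 20 nt: aGGTAGTAggttgtatagtt
bta-mir-320-1, 22 nt: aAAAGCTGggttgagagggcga
bta-mir-320-1, 20 nt: aAGCTGGGttgagagggcga
bta-mir-29a, 22 nt: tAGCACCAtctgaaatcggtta
bta-mir-29a, 20 nt: gCACCATCtgaaatcggtta
Each of these shorter tags starts 2 bases later than the 22 nt tag, so its bases 2 to 8 lie 2 bases further along the same sequence.

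The 5′ shortened tag of bta-let-7a-3 had 195 reads in HH against 150 in LL (log2 ratio 0.68, interval 0.36 to 0.99), whereas its leading 3′ shortened tag had 9459 and 45553, a ratio of −1.97 (−2.00 to −1.94). In bta-mir-2284x the 5′ shortened tag had 168 reads in HH and 180 in LL (0.20, interval −0.11 to 0.51), and the 3′ shortened 19 nt tag had 266 and 2856 (−3.12). In bta-mir-320-1 both were lower in HH, with 175 and 670 reads for the 5′ shortened tag (−1.64) and 376 and 6046 for the 3′ shortened one (−3.71). In bta-mir-103-2 the 5′ shortened tag was at −1.93 and the leading 3′ shortened tag at −1.08, and in bta-mir-29a these were at −1.12 and −0.11. The sign of the gap between both kinds of leading tag was therefore not the same in the 5 precursors, and tags of 1 precursor share its level. For bta-mir-103-2 the gap holds for the leading tags only. Its 18 nt tag had 245 reads in HH and 2896 in LL, and its 19 nt tag 239 and 2607. All its 3′ shortened reads were 1699 in HH and 8656 in LL, against 42 and 195 5′ shortened ones. In bta-mir-2284x loss at both ends held the most short reads, with 764 in HH and 3982 in LL. Loss at the 3′ end alone held 350 and 3405 there, and loss at the 5′ end alone 170 and 181.

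The 5 lowest ratios of short share ran from well-read precursors to some close to the minimum of 100 reads. Precursor bta-mir-185 had 1094 short reads of 14450 in HH, or 7.57%, against 7220 of 14271 in LL, or 50.6%, which is 6.68-fold lower in HH. Precursor bta-mir-10a, from a HOX gene cluster, had shares of 1.16% and 8.09%, a 6.98-fold difference on 23 short reads in HH and 221 in LL. Precursor bta-mir-361 had 6.90% in HH and 55.0% in LL on 116 and 151 reads in all, and bta-mir-452 had 3.88% and 26.7% on 103 and 795. Precursor bta-let-7a-2 ranked the lowest, with 3 short reads of 1320 in HH and 36 of 1378 in LL. Its leading short tag, with 2 reads in HH and 36 in LL, starts 1 base before the 22 nt tag of bta-let-7a-3. Summed over the 3 let-7a precursors the share was 0.572% in HH and 2.77% in LL.

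Of the 15 precursors with a higher short share in HH, the intervals were apart in bta-mir-193a, bta-mir-193b, bta-mir-23b and bta-mir-27b. A precursor can give a miRNA from each arm of its hairpin, and the share then also depends on the reads of the other arm. The precursor called higher in HH was bta-mir-193a, with 1255 short reads of 3017 in HH, or 41.6% (39.8 to 43.4%), against 261 of 1360 in LL, or 19.2% (17.1 to 21.4%). Its leading short tag is printed here because the comparison turns on its arm, with bases 2 to 8 in capitals.
bta-mir-193a: aACTGGCCtacaaagtccca
Tags of this arm, taken as those sharing 12 bases in a row with that tag, were 2361 of the HH reads and 227 of the LL reads. Within the arm the short share was 52.6% in HH (50.5 to 54.6%) and 92.95% in LL (88.8 to 95.9%). The other arm had 656 reads in HH and 1133 in LL. The direction for bta-mir-193a was thus reversed once its arms were kept apart.

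Precursor bta-mir-193b behaved alike, with 22.4% in HH and 15.8% in LL over all its reads but 38.4% and 48.8% within the arm of its leading short tag. For bta-mir-27b the share within that arm was 93.8% in HH and 97.3% in LL, and its other arm had 1240 and 3974 reads. For bta-mir-27a it was 77.0% and 85.1% within the arm. Both miR-27 precursors were thus lower in HH within the arm, unlike their summed share over all reads. Over all precursors, 107 such arms had at least 100 reads in both libraries. The short share was lower in HH in 94 of them and higher in 13, and with the 2-fold limit 53 were lower and 0 higher. The intervals were apart and higher in HH in 2 arms, those of bta-mir-199a-2 (1.64% in HH and 1.44% in LL) and bta-mir-99b (3.74% and 2.53%). The others in the set of highest ratios were bta-mir-34a, with 22 short reads of 315 in HH and 11 of 265 in LL, bta-mir-378-2 (6.50% and 4.86%) and bta-mir-660 (8.48% and 6.62%). Their intervals overlapped between the libraries, and each ratio fell below 1 under another length range.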

How the data were processed

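Small RNA of primary bovine mammary epithelial cells was sequenced in 1 library titled HH and 1 titled LL. Per the labels' protocols, TRIzol-extracted RNA was treated with DNase I and RNA longer than 18 nt was recovered. The authors deposited raw read counts per distinct tag, with its length as another number, its sequence and its precursor. For trimming, aligner, build and miRNA database: not given in the sources used here. Every listed tag has the class miRNA, so the totals of 7087726 (HH) and 9059038 (LL) reads are not library depths. The RNA-seq counts were not used here.

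Shares had exact 95% Clopper-Pearson intervals (scipy 1.17.1). Tag ratios of HH over LL used TMM factors over precursors (edgeR 4.0.16, R 4.3.3) and the exact interval of the share of reads from HH. A 0 was set to a floor of 3 reads. Tags were placed on the 22 nt tag without gaps, with an overlap of at least 14 bases. Leading tags are ranked by reads. Steps were tested on simulated data. No test was possible with 1 library per code. Named precursors were the 5 with most short reads, the 8 highest and 4 lowest shares (at least 1000 reads in each library), the 5 highest and 5 lowest ratios (at least 20 short reads), the 5 with most 5′ shortened reads, and the let-7a with let-7c and miR-103 with miR-107 pairs. Others were added for the most extreme tags, the let-7 family and the arm comparison. Alternatives changed the length range, minimum, scaling, including DESeq2 1.42.0, fold and 22 nt tag. The members, lists and rules were chosen with earlier results of these data known.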

Additional observations from a re-analysis of the deposited data

How the results depend on the processing

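The short share of all miRNA reads was lower in HH under every alternative run. The ratio of HH over LL was 0.360 in the main choice, 0.318 for 18 to 19 nt, 0.498 for 18 to 21 nt, 0.547 without let-7 precursors, 0.482 without bta-let-7b, which is also the precursor with the most short reads, and 0.406 for the median precursor. Alternatives added after seeing the data gave 0.323 with the HH mix of precursors and 0.354 without shared short tags. Precursors called lower in HH numbered 56 of 116, and 33 of 63 at a minimum of 1000 reads. Those called higher numbered 1 of 116, against 2 for 18 to 19 nt, 0 for 18 to 21 nt and 3 by the ratio alone. Within arms there were 0 of 107. Short tags called lower in HH numbered 105 of 203, against 61 of 203 at 4-fold and 175 of 1483 with no minimum. Those called higher numbered 14 of 203, against 28 of 395 at 20 summed reads. They were 38 of 1483 with no minimum and 6 of 203 at 4-fold. The called part was thus smaller with no minimum, where most tags have few reads. The split of all 619 tags moved with scaling, from 57.9% of calls lower in HH to 68.8% with the upper quartile, and that of short tags from 88.2% to 90.8%.

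The share of 3′ shortened reads (97.3% in HH, 97.5% in LL) was 97.9% and 96.5% against the leading tag of 21 nt or more, 97.04% and 97.6% against the 22 nt tag summed over both libraries, 89.3% and 91.1% without let-7 precursors, and 35.8% and 32.4% by distinct tags. Among named precursors the ratio changed side of 1 in bta-mir-27b (0.990), bta-mir-27a (1.013), bta-mir-29a (1.249), bta-mir-378-2 (0.975) and bta-mir-660 (0.676) for 18 to 21 nt, in bta-let-7g (1.586), bta-mir-34a (0.280) and bta-mir-378-2 (0.879) for 18 to 19 nt, and within arms in bta-mir-27b (0.964), bta-mir-193a (0.565) and bta-mir-193b (0.786). The cause was not tested. No paired analysis was possible because each code has 1 library. Shares resting on under 100 reads, as short reads in bta-mir-10a in HH, are the least precise.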
